A study of Mus musculus with 66 samples.

Results

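GABAergic interneurons are the inhibitory neurons of the forebrain, and the 10 genes described here are among those that identify them and make their transmitter. They are Gad1, Gad2, Slc32a1, Dlx1, Dlx2, Dlx5, Dlx6os1, Lhx6, Sst and Npy. They were taken by symbol, 10 of the 30084 gene symbols in the count table, and each had 1 row. All 10 passed the filter on low counts, which left 16145 genes to test. Each member was followed through every condition of the series, including the conditions without a depletion.

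RNA was sequenced from neurons cultured from wildtype (WT) mouse embryos (e16.5) that had been separated by sex. Lentivirus carried an shRNA (a hairpin RNA that triggers decay of a matching mRNA) against 1 of 9 regulators of chromatin or transcription, of which Ash1l, Chd8, Med13l and Setd5 gave most of the calls below and Dnmt3a, Kdm6b, Kmt2c, Mbd5 and Tbr1 few or none, at doses meant to leave about 50% of the target. The controls were a nontargeting shRNA and no virus, and each of the 11 conditions had 3 male and 3 female libraries, 66 in all. Below, control stands for the nontargeting shRNA of the same sex unless no virus is named. Cultures were freed of virus on day 6 and harvested on day 10. The labels name the cells only as cultured neurons, without a brain region, and describe wells infected in triplicate, so p-values measure the spread between these libraries, which may be technical. Library totals lay between 13634872 and 66074822 counts, and the members had between 88 (Dlx2) and 47172 (Gad1) counts in a library.

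As background, Gad1 and Gad2 encode the enzymes that make GABA from glutamate, and Slc32a1 encodes the transporter that loads GABA into synaptic vesicles. Dlx1, Dlx2 and Dlx5 encode homeodomain transcription factors that direct progenitors of the ventral forebrain towards a GABAergic fate, and Dlx6os1 is a noncoding RNA transcribed from the Dlx5 and Dlx6 locus. Lhx6 is a LIM homeodomain factor of interneurons born in the medial ganglionic eminence. Sst and Npy encode neuropeptides, somatostatin and neuropeptide Y, that are made by subsets of those interneurons. Gad1, Gad2 and Slc32a1 are also used by striatal projection neurons, so they mark inhibitory neurons in general.

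In mm10, 6 members lie on chromosome 2: Gad2 at 22622205 to 22693874, Lhx6 at 36081953 to 36105408 (minus strand), Gad1 at 70553072 to 70602014, the neighbours Dlx1 at 71528113 to 71533981 and Dlx2 at 71543408 to 71546754 (minus strand), and Slc32a1 at 158610767 to 158615748. On chromosome 6 are Dlx6os1 at 6820189 to 6871592 and Dlx5 at 6877805 to 6882085 (both minus strand) and Npy at 49822710 to 49829507, and on chromosome 16 is Sst at 23889573 to 23890958 (minus strand). All are protein-coding except Dlx6os1, which GENCODE M21 lists as antisense.

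The sequence before the start of a gene is shown for the 3 transmitter genes and Sst, the members called in a knockdown comparison within a single sex. The windows come from RefSeq (GRCm38.p6), whose table matched 9 of the 10 members with 12 windows of 250 bases before a start. Bases that GENCODE M21 places in an exon of the same gene were left off, which removed 87 bases for Gad1, 122 for Gad2, none for Slc32a1 and 114 for Sst. The Gad1 window lies inside the gene as GENCODE draws it, which begins at an earlier start. Capitals mark the motifs searched on both strands, TGACGTCA (the cyclic AMP response element, CRE), its 5-base part TGACG, the homeodomain core TAATTA and the E-box CACGTG. None of these lies in the 4 trimmed windows. They read 5′ to 3′ on the strand of the gene.
Gad1, chr2:70561879-70562041, plus strand: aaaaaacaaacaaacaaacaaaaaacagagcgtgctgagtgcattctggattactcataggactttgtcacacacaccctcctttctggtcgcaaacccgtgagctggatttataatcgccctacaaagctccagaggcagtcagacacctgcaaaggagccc
Gad2, chr2:22622077-22622204, plus strand: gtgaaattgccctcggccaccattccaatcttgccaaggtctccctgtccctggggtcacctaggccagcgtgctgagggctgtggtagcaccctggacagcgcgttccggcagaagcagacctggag
Slc32a1, chr2:158610508-158610757, plus strand: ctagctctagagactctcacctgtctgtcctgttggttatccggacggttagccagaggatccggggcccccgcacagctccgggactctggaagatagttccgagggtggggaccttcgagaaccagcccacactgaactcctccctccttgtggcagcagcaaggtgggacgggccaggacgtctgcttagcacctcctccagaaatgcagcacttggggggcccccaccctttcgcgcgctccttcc
Sst, chr16:23890959-23891094, minus strand: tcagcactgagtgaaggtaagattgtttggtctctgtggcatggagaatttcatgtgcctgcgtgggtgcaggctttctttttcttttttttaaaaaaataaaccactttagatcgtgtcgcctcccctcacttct
Sst, the 30 bases around its CRE, chr16:23890874-23890903, minus strand: gcctccttggcTGACGTCAgagagagagtt
The CRE of Sst begins at position -48 from the RefSeq start, in bases that GENCODE assigns to the first exon of Sst. Of all 32851 windows in the table, 1.55% hold the full CRE, and Sst was the only member among the 12 windows that did. TGACG alone is in 17.8% of all windows, and among the members in those of Gad2, Dlx2, Dlx6os1 and Sst. Homeodomain cores were in both windows of Dlx6os1 and in 4.84% of all windows, and E-boxes were in that of Dlx2 and in 6.02%. The Slc32a1 window overlaps exons of the antisense gene Gm14204.

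In no virus males, the peptide genes had the highest levels per length of exon. Sst stood at 737 ± 62.5 CPM per kb (SD, n = 3) and Npy at 182 ± 46.5 CPM per kb. The transmitter genes followed, with Gad1 at 101 ± 15.3, Gad2 at 59.7 ± 6.42 and Slc32a1 at 56.1 ± 6.57 CPM per kb. Gad2 and Slc32a1 did not differ beyond their spread. Lhx6 stood at 21.9 ± 3.40, Dlx6os1 at 21.3 ± 1.18 and Dlx1 at 17.8 ± 1.60 CPM per kb, where Lhx6 overlapped with both of the others and every Dlx6os1 library lay above the highest Dlx1 value of 19.4. Dlx5 at 6.20 ± 1.22 and Dlx2 at 3.78 ± 0.807 CPM per kb were lowest. Not all of this order held in females. In nontargeting females Npy (93 to 209 CPM per kb) overlapped with Gad1 (73 to 105). In no virus females Dlx1 (13.1 to 31.5 CPM per kb) overlapped with Dlx6os1 (16.0 to 27.0). Here CPM is the count scaled to the TMM-adjusted total of the library, and the length is the union of exons in GENCODE M21 on mm10.

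Infection itself gave no call. Of 30 tests of nontargeting shRNA against no virus (10 members in males, females and both), 0 passed in edgeR's quasi-likelihood test, 0 had an unadjusted p under 0.05, and 0 passed in DESeq2. Among all genes 0% were called in these comparisons. The log2 differences ran from -0.26 (Npy, females) to 0.16 (Slc32a1, females), with SEs between 0.15 and 0.36.

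Each target was below its control in all 18 knockdown groups, at 22.3% to 54.3% of the mean of the nontargeting libraries. For 2 male libraries the targets contradicted the label. Under the label Setd5 shRNA, replicate 1 had Setd5 at 141 CPM beside Kdm6b at 23.1 CPM, while under the label Kdm6b shRNA, replicate 1 had Setd5 at 44.9 CPM beside Kdm6b at 39.9 CPM. These and the library labelled Setd5 shRNA female replicate 1 were left out in an alternative. Its values are given beside the Setd5 calls and the Dlx1 result of Kdm6b shRNA. That female library did not go against its label, with Setd5 at 31.9 CPM beside 32.9 CPM in replicate 3. The cultures also held RNA of other cells. In the nontargeting libraries the summed level of 12 excitatory neuron markers was 989 to 1203 CPM, that of 12 striatal projection neuron markers 321 to 536 CPM and that of 10 astrocyte markers 492 to 761 CPM, while 5 tested microglial markers summed to at most 2.32 CPM. In such bulk libraries, fewer interneurons and less RNA per interneuron cannot be told apart.

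A term for the replicate number within each sex was added to the fit as an alternative, and its value is given where it changes a call and the numbers pair the libraries. In the 18 comparisons of a knockdown with nontargeting shRNA of the same sex, 11 of 180 member tests passed and all 11 were lower, where 0% to 6.18% of all genes were lower in a single comparison. For the 5 targets without a member call there, the share of all genes lower was 0.111% and 0.105% (Dnmt3a, males and females), 0.0557% and 0% (Kdm6b), 0.0805% and 0.0867% (Kmt2c), 0.0557% and 0.0496% (Mbd5) and 0.204% and 0.0557% (Tbr1). The calls fell on 4 genes, Slc32a1 (5), Gad1 (3), Gad2 (2) and Sst (1), and on 4 targets, Ash1l, Chd8, Med13l and Setd5. The 4 Dlx members, Lhx6 and Npy had 0 calls in these sex-specific comparisons. When the male and female differences were averaged, 13 of 90 tests passed, again all lower, where 0.564% (Mbd5) to 12.5% (Chd8) of all genes were lower, with Kmt2c at 0.595%, Kdm6b at 0.607% and Tbr1 at 1.08%. All these comparisons share the nontargeting libraries of their sex.

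**Figure D1:**
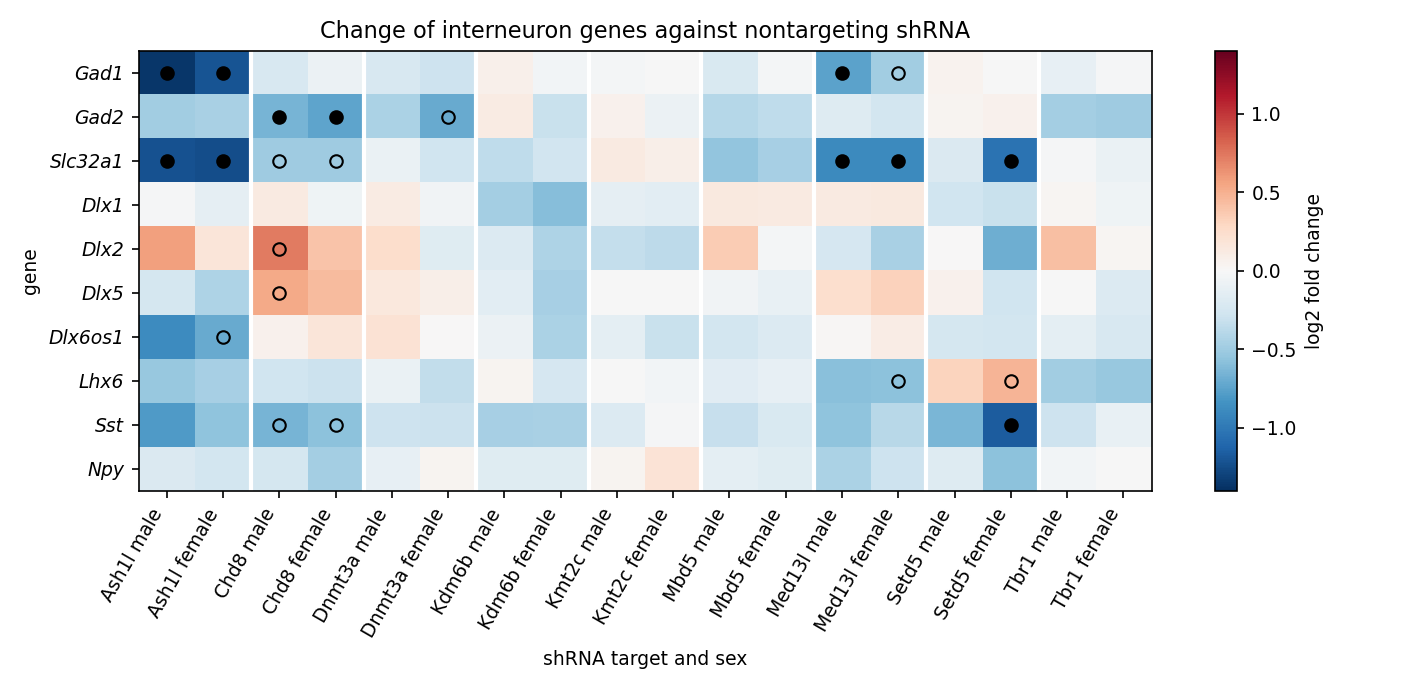
Log2 fold change of each member (rows) in each shRNA target and sex (columns) against nontargeting shRNA of the same sex, 3 libraries against 3. Filled circles mark an adjusted p under 0.05 in edgeR, and open circles mark tests that passed only with replicate number in the fit, in groups whose numbers pair the libraries. The filled circles lie on Gad1, Gad2, Slc32a1 and Sst, with the strongest decrease at -1.36 (Gad1, Ash1l shRNA males).

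Gad1 fell after Ash1l shRNA in both sexes and after Med13l shRNA in males. In the nontargeting libraries it stood at 808, 701 and 905 CPM in males and at 771, 803 and 560 CPM in females. After Ash1l shRNA, whose target encodes a histone methyltransferase, it stood at 360, 315 and 265 CPM in males and at 326, 359 and 242 CPM in females. No Ash1l library reached the lowest control of its sex. Males had a log2 fold change of -1.36 (SE 0.21, edgeR adjusted p = 3.18e-05), and females one of -1.20 (SE 0.21, adjusted p = 0.000380). Ash1l shRNA brought 2 members lower in each sex, beside 1.46% of all genes in males and 0.842% in females.

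Med13l encodes a subunit of the kinase module of Mediator. Gad1 stood at 485, 548 and 403 CPM in males with Med13l shRNA and fell by 0.75 on the log2 scale (SE 0.21, edgeR adjusted p = 0.0180), a call that ended without Med13l replicate 1 or 3 or nontargeting replicate 1 or 3 (adjusted p up to 0.132). Females had 376, 790 and 352 CPM, so replicate 2 lay within the control range while the other two lay below it. Their value was -0.49 on the log2 scale (SE 0.21, adjusted p = 0.133), and with replicate number in the fit it was -0.55 (SE 0.14, adjusted p = 0.00266). Over both sexes the value was -0.62 (SE 0.15, adjusted p = 0.00156). The other 7 knockdowns left Gad1 between -0.28 and 0.07 in either sex, with no call.

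Slc32a1 was called in 5 of the 18 sex-specific comparisons, after Ash1l and Med13l shRNA in both sexes and after Setd5 shRNA in females. Control libraries held 154, 150 and 171 CPM in males and 157, 108 and 113 CPM in females. Ash1l shRNA gave 69.8, 83.0 and 51.1 CPM in males and 61.4, 65.2 and 32.9 CPM in females. All 6 Ash1l libraries lay below the lowest control of their sex. Males had a log2 fold change of -1.22 (SE 0.24, edgeR adjusted p = 0.00100), and females one of -1.24 (SE 0.24, adjusted p = 0.00134). Without Ash1l shRNA female replicate 3 the female call ended (adjusted p = 0.0656).

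After Med13l shRNA, Slc32a1 stood at 84.1, 105 and 67.0 CPM in males and at 72.7, 91.1 and 39.6 CPM in females. These ranges did not overlap with those of the controls. Both sexes had a log2 fold change of -0.89 (SE 0.24), with edgeR adjusted p = 0.0109 in males and 0.00927 in females. The call in males ended without Med13l replicate 1 or 3 or nontargeting replicate 3, and that in females without Med13l replicate 3 or nontargeting replicate 1 (adjusted p up to 0.111 and 0.138). The female call also ended with each sex fitted separately (adjusted p = 0.0584). Med13l shRNA called 2 members lower in males, where 4.92% of all genes were, and 1 in females, where 5.49% were.

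Setd5 encodes a SET domain protein. In females with Setd5 shRNA, Slc32a1 stood at 55.6, 81.4 and 47.2 CPM, all below the control range, a log2 fold change of -1.04 (SE 0.24, edgeR adjusted p = 0.00819). Males had 167, 117 and 129 CPM, which overlapped with their controls, and the first of these is the library that goes against its label. The male value was -0.20 (SE 0.24) and did not pass, with 0 members called beside 0.0496% of all genes lower. The male effect minus the female effect was 0.83 (SE 0.34), with an unadjusted p of 0.0166 and an adjusted p of 1 in edgeR, so it did not pass. Without the 3 libraries named above it was 0.62 (SE 0.37, unadjusted p = 0.0986), and the female value was -0.97 (SE 0.27, adjusted p = 0.0495). The female call ended without Setd5 replicate 1 or 3 or nontargeting replicate 1 (adjusted p up to 0.0988), and with each sex fitted separately (0.0675). In females with Setd5 shRNA 2 members were called lower, beside 2.14% of all genes.

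Chd8 encodes a chromatin remodeller. For Slc32a1, Chd8 shRNA gave 122, 121 and 94.1 CPM in males and 83.1, 104 and 81.0 CPM in females, all below the control range. Each sex had a log2 fold change of -0.50 (SE 0.24), which did not pass (edgeR adjusted p = 0.206 and 0.214). With replicate number in the fit the values were the same and passed at 0.0407 in males and 0.0423 in females. Over both sexes Slc32a1 fell by 0.50 (SE 0.17, adjusted p = 0.0255). That call ended against the no virus libraries and without nontargeting male replicate 3, nontargeting female replicate 1, Chd8 male replicate 3 or Chd8 female replicate 1 or 3 (adjusted p up to 0.0991). After Mbd5 shRNA the average was -0.51 (SE 0.17, adjusted p = 0.212), which passed with replicate number in the fit (-0.53, SE 0.13, adjusted p = 0.0102), where 2.37% of all genes were lower. Kmt2c shRNA left Slc32a1 at 174, 170 and 172 CPM in males, beside controls of 150 to 171 CPM, with no call.

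Because the exons of Slc32a1 share 24.9% of their bases with the antisense gene Gm14205, and whether counting used strand is not given in the sources used here, reads of that stretch cannot be assigned to one of the pair. The same holds for 6.2% of the exon bases of Dlx1, which lie in Dlx1as. Dlx6os1 runs opposite to Dlx6 and shares 0 exon bases with it.

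Gad2 fell after Chd8 shRNA in both sexes. It stood at 363, 318 and 391 CPM in control males and at 232, 243 and 209 CPM after Chd8 shRNA. In females the control levels were 379, 330 and 254 CPM and those after Chd8 shRNA 233, 192 and 154 CPM. The ranges did not overlap in either sex. In males Gad2 changed by -0.65 on the log2 scale (SE 0.21, edgeR adjusted p = 0.0384), and in females by -0.73 (SE 0.21, adjusted p = 0.0169). Leaving out single libraries ended the male call in 5 of 6 cases (all but nontargeting replicate 2, adjusted p up to 0.173) and the female call in 3 of 6 (nontargeting replicates 1 and 2 and Chd8 replicate 3, up to 0.124). The male call also ended without a filter on low counts (adjusted p = 0.0581), and the female one with each sex fitted separately (0.0731). The average over both sexes, -0.69 (SE 0.15, adjusted p = 0.000383), passed in all 12 cases with 1 library left out. Gad2 was the 1 member called in each sex, beside 6.18% of all genes lower in males and 5.99% in females.

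Gad2 also fell in the average of both sexes after Dnmt3a and Ash1l shRNA. After shRNA against Dnmt3a, a DNA methyltransferase, Gad2 stood at 225, 258 and 308 CPM in males and at 220, 222 and 149 CPM in females, and every library was below the lowest control of its sex. The sexes averaged -0.57 (SE 0.15, edgeR adjusted p = 0.0314), where 0.923% of all genes were lower, and the call ended in 8 of 12 cases when 1 library was left out (nontargeting male 1 and 3 and female 1 and 2, Dnmt3a male 1 and 2 and female 1 and 3, adjusted p up to 0.142). In females alone it was -0.70 (SE 0.21, adjusted p = 0.332), which passed with replicate number in the fit (-0.71, SE 0.17, adjusted p = 0.0209), where 1.01% of all genes were lower. Ash1l shRNA gave an average of -0.47 (SE 0.15, adjusted p = 0.0432), which ended in 8 of 12 such cases (nontargeting male 1 and 3 and female 1 and 2, Ash1l replicates 2 and 3 of both sexes, up to 0.149) and without a filter on low counts (0.0513).

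**Figure D2:**
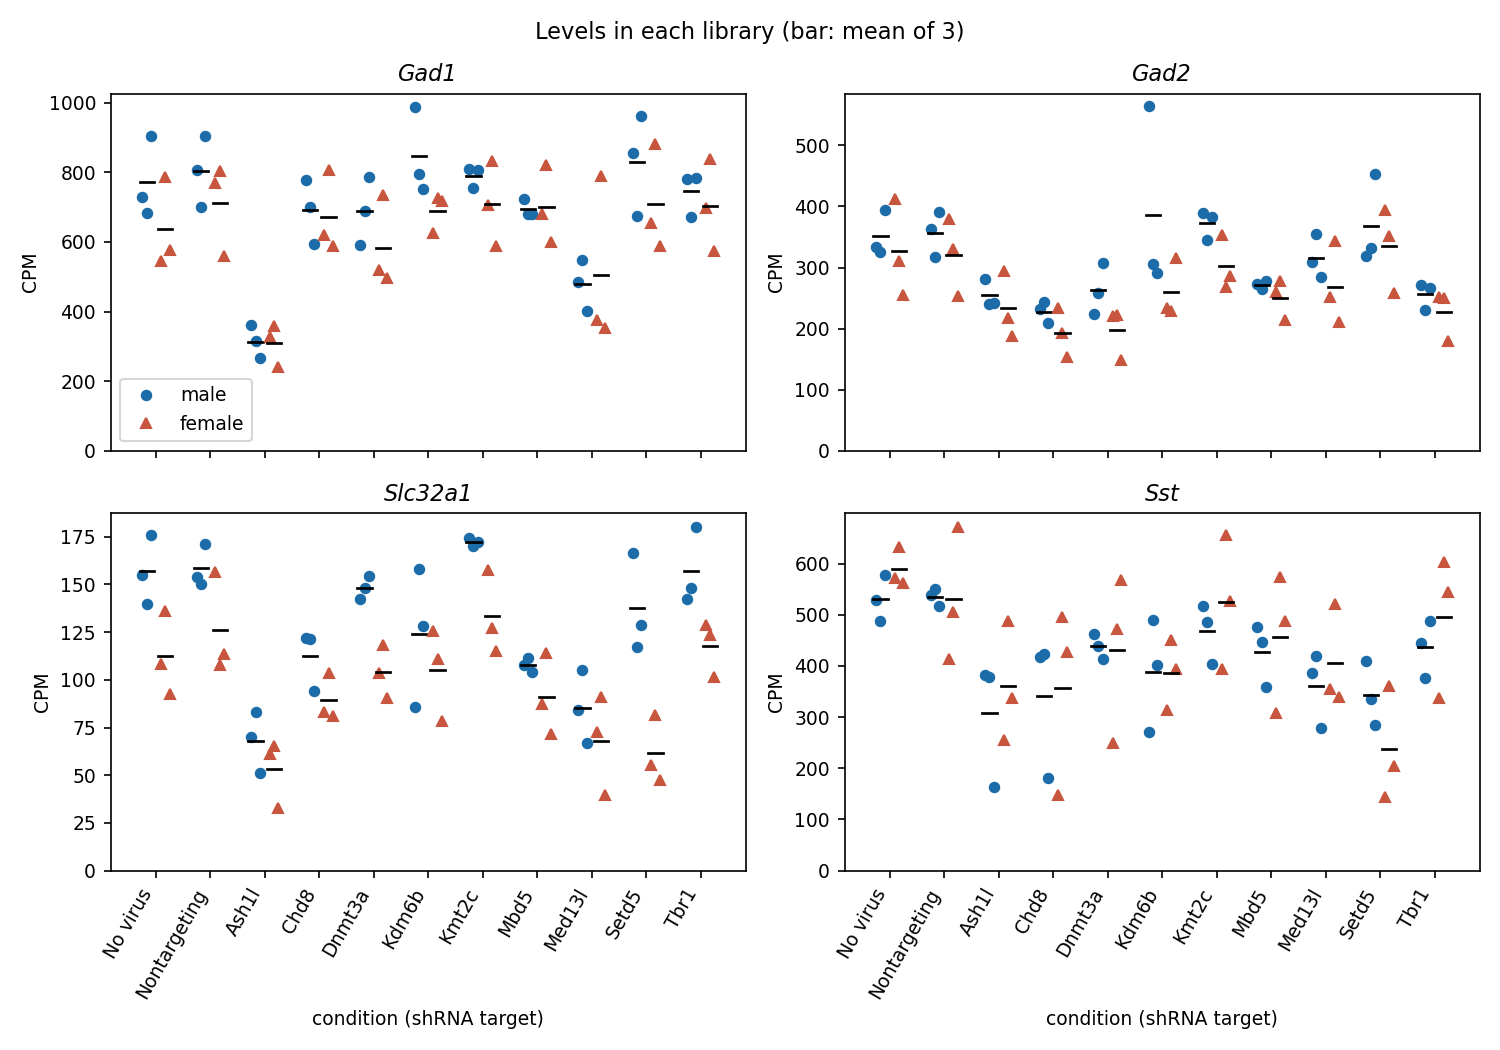
CPM of Gad1, Gad2, Slc32a1 and Sst in each library, for 11 conditions on the x axis, with males as circles, females as triangles and the mean of 3 as a bar. Gad1 lies at 242 to 360 CPM in the 6 Ash1l libraries, below every control library, while Gad2 is lowest on average in Chd8 shRNA females.

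The Dlx genes had no call in the single sexes, and among them the average over both sexes passed only for Dlx6os1. Dlx6os1 stood at 142, 105 and 115 CPM in control males and at 75.5, 75.0 and 46.7 CPM after Ash1l shRNA, all below the controls. In females it stood at 133, 96.7 and 94.3 CPM and at 96.4, 58.1 and 45.1 CPM, where the first Ash1l library lay within the control range. Averaged over the sexes it fell by 0.79 on the log2 scale (SE 0.18, edgeR adjusted p = 0.00365), and it passed in each of the 12 cases with 1 library left out. The female value of -0.70 (adjusted p = 0.290) passed with replicate number in the fit (-0.74, SE 0.18, adjusted p = 0.00644), where 2.68% of all genes were lower. Averaged over the sexes, Ash1l shRNA brought 5 of 10 members lower (Gad1, Gad2, Slc32a1, Dlx6os1 and Lhx6) and 0 higher, beside 3.49% of all genes lower and 2.67% higher.

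Dlx2 and Dlx5 had values above the controls after Chd8 shRNA, which passed only with replicate number in the fit or in some alternatives. In males Dlx2 stood at 10.0, 9.59 and 11.5 CPM in controls and at 16.4, 17.5 and 17.7 CPM after Chd8 shRNA, and Dlx5 at 14.7, 12.3 and 16.0 CPM and at 23.3, 20.1 and 18.8 CPM. No male control reached a Chd8 library for either gene. The male log2 fold changes were 0.73 (SE 0.31, edgeR adjusted p = 0.137) for Dlx2 and 0.53 (SE 0.29, adjusted p = 0.291) for Dlx5. With replicate number in the fit they were 0.73 (SE 0.22, adjusted p = 0.0111) and 0.53 (SE 0.19, adjusted p = 0.0412). In that fit 9.65% of all genes were higher and 12.5% lower after Chd8 shRNA in males.

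In females Dlx2 stood at 13.3, 9.14 and 6.82 CPM in controls and at 15.6, 12.5 and 10.5 CPM after Chd8 shRNA. Each Chd8 library was above the control of its own number, though the ranges overlapped. The average over both sexes was 0.57 (SE 0.22, adjusted p = 0.0545) for Dlx2 and 0.49 (SE 0.21, adjusted p = 0.0840) for Dlx5 in edgeR. With replicate number in the fit these passed at 0.00233 and 0.00221, where 17.5% of all genes were higher. DESeq2 called Dlx2 in that average as well (0.58, adjusted p = 0.0391). After Ash1l shRNA Dlx2 stood at 12.8 to 18.7 CPM in males, above their controls. In females it stood at 8.21 to 13.6 CPM, which overlapped with theirs. It had no call there with all libraries fitted together. In males it passed with each sex fitted separately (0.56, SE 0.17, edgeR adjusted p = 0.0400).

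Dlx1 stayed between -0.60 and 0.14 in all 18 comparisons. The lowest values came with Kdm6b shRNA, against a histone demethylase, where Dlx1 stood at 84.9, 66.4 and 58.4 CPM in males, the first in the library that goes against its label, and at 86.2, 40.9 and 67.9 CPM in females. Controls held 109, 95.2 and 88.7 CPM and 140, 71.7 and 83.5 CPM. Over both sexes Dlx1 differed by -0.54 on the log2 scale (SE 0.22, edgeR adjusted p = 0.302), and without the 3 libraries named above it was -0.62 (adjusted p = 0.251). After Setd5 shRNA the average of -0.29 (SE 0.22, adjusted p = 0.534) passed with replicate number in the fit (-0.27, SE 0.08, adjusted p = 0.0207), where 8.91% of all genes were lower. Without the 3 libraries and without that term it was -0.36 (adjusted p = 0.568).

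Lhx6 fell after Ash1l and Med13l shRNA when the sexes were averaged, and its values after Setd5 shRNA lay on the other side of 0. Controls held 101, 121 and 101 CPM in males and 120, 78.8 and 76.8 CPM in females. Med13l shRNA gave 72.5, 82.1 and 60.5 CPM in males and 64.3, 75.5 and 46.0 CPM in females, below the control range in both sexes. The average was -0.58 (SE 0.15, edgeR adjusted p = 0.00414) and passed in all 12 cases with 1 library left out. Females alone had -0.57 (SE 0.22, adjusted p = 0.0850), which passed with replicate number in the fit (-0.55, SE 0.16, adjusted p = 0.00932), where 13.9% of all genes were lower. Averaged over the sexes, Med13l shRNA brought Gad1, Slc32a1 and Lhx6 lower, 3 of 10 members, beside 12.3% of all genes.

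For Ash1l shRNA the average of Lhx6 was -0.50 (SE 0.15, adjusted p = 0.0398 in edgeR), which ended in 9 of 12 cases with 1 library left out (all but nontargeting female 2 and 3 and Ash1l male 1, adjusted p up to 0.176). Setd5 shRNA gave 155, 104 and 124 CPM of Lhx6 in females and 87.6, 163 and 151 CPM in males, where 87.6 CPM is the library that goes against its label. The other two male libraries and 2 of 3 female libraries were above every nontargeting library of their sex, while the no virus females reached 135 CPM. Females had a value of 0.47 on the log2 scale (SE 0.22, adjusted p = 0.255), which passed with replicate number in the fit (0.49, SE 0.16, adjusted p = 0.0378), where 5.54% of all genes were higher. Over both sexes it was 0.39 (SE 0.15, adjusted p = 0.136), and 0.40 with replicate number (SE 0.11, adjusted p = 0.0116), where 7.32% were higher. Without the 3 libraries the values were 0.30 in females, 0.55 in males and 0.43 over both (adjusted p = 0.786, 0.339 and 0.119). Tbr1 encodes a T-box factor of excitatory neurons. After Tbr1 shRNA the average was -0.51 for Lhx6 and -0.49 for Gad2 (SE 0.15 each, adjusted p = 0.0881 and 0.0923), and both passed with replicate number in the fit (-0.50 and -0.49, SE 0.12 each, adjusted p = 0.00300 and 0.00751), where 4.45% of all genes were lower.

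Of the peptides, Sst fell after Setd5 shRNA in females. It stood at 414, 506 and 672 CPM in control females and at 144, 362 and 205 CPM after Setd5 shRNA, below every control. This was a log2 fold change of -1.16 (SE 0.34, edgeR adjusted p = 0.0441). This call ended in 5 of 6 cases with 1 library left out (all but Setd5 replicate 2, adjusted p up to 0.384) and without the 3 libraries named above (-0.91, SE 0.37, adjusted p = 0.329). It ended as well with each sex fitted separately (0.156) and without a filter on low counts (0.0833). Males had 539, 549 and 517 CPM in controls and 410, 336 and 285 CPM after Setd5 shRNA, also below every control, where 410 CPM is the library that goes against its label. The male value of Sst was -0.64 without a call, and -0.78 without the 3 libraries (SE 0.37, edgeR adjusted p = 0.519). The average over both sexes was -0.90 (SE 0.24, adjusted p = 0.0150) and ended without Setd5 female replicate 1, Setd5 male replicate 3 or nontargeting female replicate 3 (adjusted p up to 0.0822). Averaged over the sexes, Setd5 shRNA brought 2 of 10 members lower, Slc32a1 (-0.62, SE 0.17, adjusted p = 0.0175) and Sst, beside 3.46% of all genes. The Slc32a1 average ended without nontargeting female replicate 1, Setd5 male replicate 2 or 3 or Setd5 female replicate 1 or 3 (adjusted p up to 0.0786). Without the 3 libraries both averages passed, at -0.67 for Slc32a1 (adjusted p = 0.0224) and -0.84 for Sst (adjusted p = 0.0475).

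Sst after Chd8 shRNA varied between libraries of a group. It stood at 417, 424 and 180 CPM in males and at 148, 495 and 427 CPM in females. The low library was replicate 3 in males and replicate 1 in females. Over both sexes the value was -0.61 (SE 0.24, edgeR adjusted p = 0.0567), and with replicate number in the fit it was -0.69 (SE 0.18, adjusted p = 0.00157), where 19.4% of all genes were lower. In each sex it likewise passed with replicate number in the fit (males -0.70, SE 0.25, adjusted p = 0.0365, and females -0.68, SE 0.25, adjusted p = 0.0435, where 12.1% of all genes were lower in females). Averaged over the sexes, Chd8 shRNA brought Gad2 and Slc32a1 lower without that term, beside 12.5% of all genes. The Sst average passed with DESeq2 (-0.60, adjusted p = 0.0446) and in edgeR against no virus (-0.68, adjusted p = 0.0310). After Ash1l shRNA Sst stood at 163 to 383 CPM in males and 255 to 487 CPM in females. Its average there had an edgeR adjusted p of 0.0817. It passed with DESeq2 (-0.68, adjusted p = 0.0479) and in edgeR against no virus (-0.75, adjusted p = 0.0451).

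Npy had no call in any sex-specific comparison. Its group means lay between 52.6 CPM in Setd5 shRNA females and 108 CPM in Kmt2c shRNA males. The log2 fold changes ran from -0.57 (Setd5 shRNA, females) to 0.20 (Kmt2c shRNA, females), with SEs of 0.36 to 0.37. In Setd5 shRNA females it stood at 51.4, 54.3 and 52.2 CPM against 118, 52.8 and 63.4 CPM in controls, so 2 of 3 Setd5 libraries lay below the lowest control and the third within the control range. Without the 3 libraries the value was -0.56. Kmt2c shRNA gave 0 calls for any member, with or without replicate number in the fit, beside 0.694% of all genes called in either direction in the average of both sexes.

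The 4 shRNA groups with calls in a single sex were compared directly with each other over both sexes, 6 pairs and 60 member tests, a comparison chosen after the values were seen. Of these 23 passed. Gad1 was lower after Ash1l shRNA than after each of the others, with log2 differences of -1.13 against Chd8 (SE 0.15, edgeR adjusted p = 4.71e-08), -0.66 against Med13l (adjusted p = 0.000547) and -1.30 against Setd5 (adjusted p = 6.76e-09). Gad2 was lower after Chd8 shRNA than after Med13l shRNA (-0.48, SE 0.15, adjusted p = 0.00942) and Setd5 shRNA (-0.74, SE 0.15, adjusted p = 0.000106). The difference of Gad2 for Ash1l minus Chd8 was 0.22 (SE 0.15, adjusted p = 0.313).

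Lhx6 was higher after Setd5 shRNA than after the other 3. The differences were -0.97 for Med13l minus Setd5 (SE 0.16, edgeR adjusted p = 2.75e-06), -0.89 for Ash1l minus Setd5 (adjusted p = 2.61e-05) and -0.68 for Chd8 minus Setd5 (adjusted p = 0.000529). Dlx2 was higher after Chd8 than after Med13l or Setd5 shRNA, by 0.91 in both pairs (SE 0.22, adjusted p = 0.000789 and 0.00130), and likewise higher after Ash1l than after either of these, by 0.71. The Ash1l differences in Dlx2 ended without single libraries (Med13l female replicate 3 in the Med13l pair, and Ash1l male replicate 2, Ash1l female replicate 1 or Setd5 replicate 1 of either sex in the Setd5 pair), and the latter also without the 3 libraries. Dlx6os1 was lower after Ash1l than after Chd8 (-0.90, SE 0.18, adjusted p = 0.000150), Med13l (-0.85) or Setd5 (-0.54) shRNA, and the last of these ended in 8 of 12 cases with 1 library left out (all but Setd5 female 3, Ash1l male 1 and 2 and Ash1l female 1) and without the 3 libraries. Sst and Npy gave 0 calls in the 6 pairs. These groups differ widely from each other, with between 14.8% (Ash1l minus Setd5) and 36.9% (Chd8 minus Med13l) of all genes called, and 25.3% for Ash1l minus Chd8, 29.4% for Ash1l minus Med13l, 27.9% for Chd8 minus Setd5 and 28.7% for Med13l minus Setd5.

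**Figure D3:**
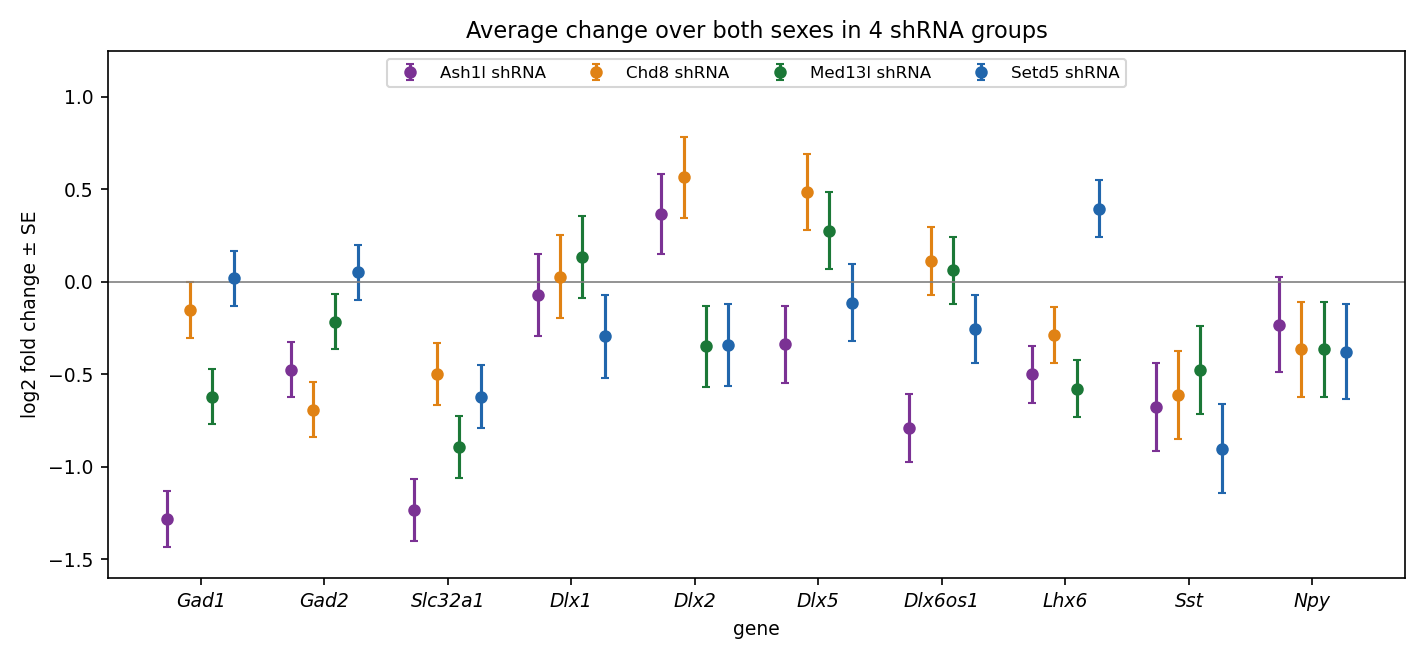
Log2 fold change against nontargeting shRNA, averaged over both sexes (6 libraries against 6), for the 10 members in the 4 shRNA groups with calls in a single sex; bars are ± SE from the fit. Gad1 ranges from -1.28 (Ash1l) to 0.02 (Setd5), and Lhx6 is above 0 with Setd5 shRNA and below 0 with the other 3.

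No sex difference was detected among the members. Of 90 tests of the sex difference of a knockdown effect, 0 passed in edgeR and 0 in DESeq2, and 1 had an unadjusted p under 0.05 (Slc32a1 after Setd5 shRNA, above). Their SEs were between 0.30 and 0.51. At most 0.0186% of all genes were called in any of these 9 comparisons. Between males and females of the nontargeting or the no virus condition, 0 of 20 member tests passed in edgeR or DESeq2, beside 0.0434% of all genes in either condition. There 1 unadjusted p was under 0.05, for Slc32a1 in no virus libraries, higher in males by 0.48 (SE 0.24, adjusted p = 0.995).

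Members also differed by replicate number within a sex. In females all 10 members differed by replicate number (edgeR F test), and in males 3 did, Npy, Dlx6os1 and Lhx6. Among all genes, 72.6% were called in females and 28.7% in males. Dlx1 in females was highest in replicate 1 in 11 of 11 conditions, with geometric means over conditions of 132, 67.2 and 77.4 CPM for replicates 1, 2 and 3 (adjusted p = 2.28e-19). Gad1 in females was highest in replicate 2 in 11 of 11 conditions (575, 744 and 516 CPM, adjusted p = 2.63e-08).

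Sst in females was lowest in replicate 1, at 295 CPM against 517 and 440 CPM (adjusted p = 3.21e-06 in edgeR). Npy in males was highest in replicate 2 in 10 of 11 conditions, with 92.8, 123 and 70.2 CPM (adjusted p = 6.06e-07), and in females it was highest in replicate 1 in 9 of 11. What the number stands for is not stated in the labels. After removal of the group means, the 45 pairs of members had a median Pearson r of 0.35 over the 66 libraries. The lowest was -0.53 (Dlx1 and Sst) and the highest 0.73 (Dlx2 and Dlx5). Such values share the replicate numbers and carry no test.

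**Figure D4:**
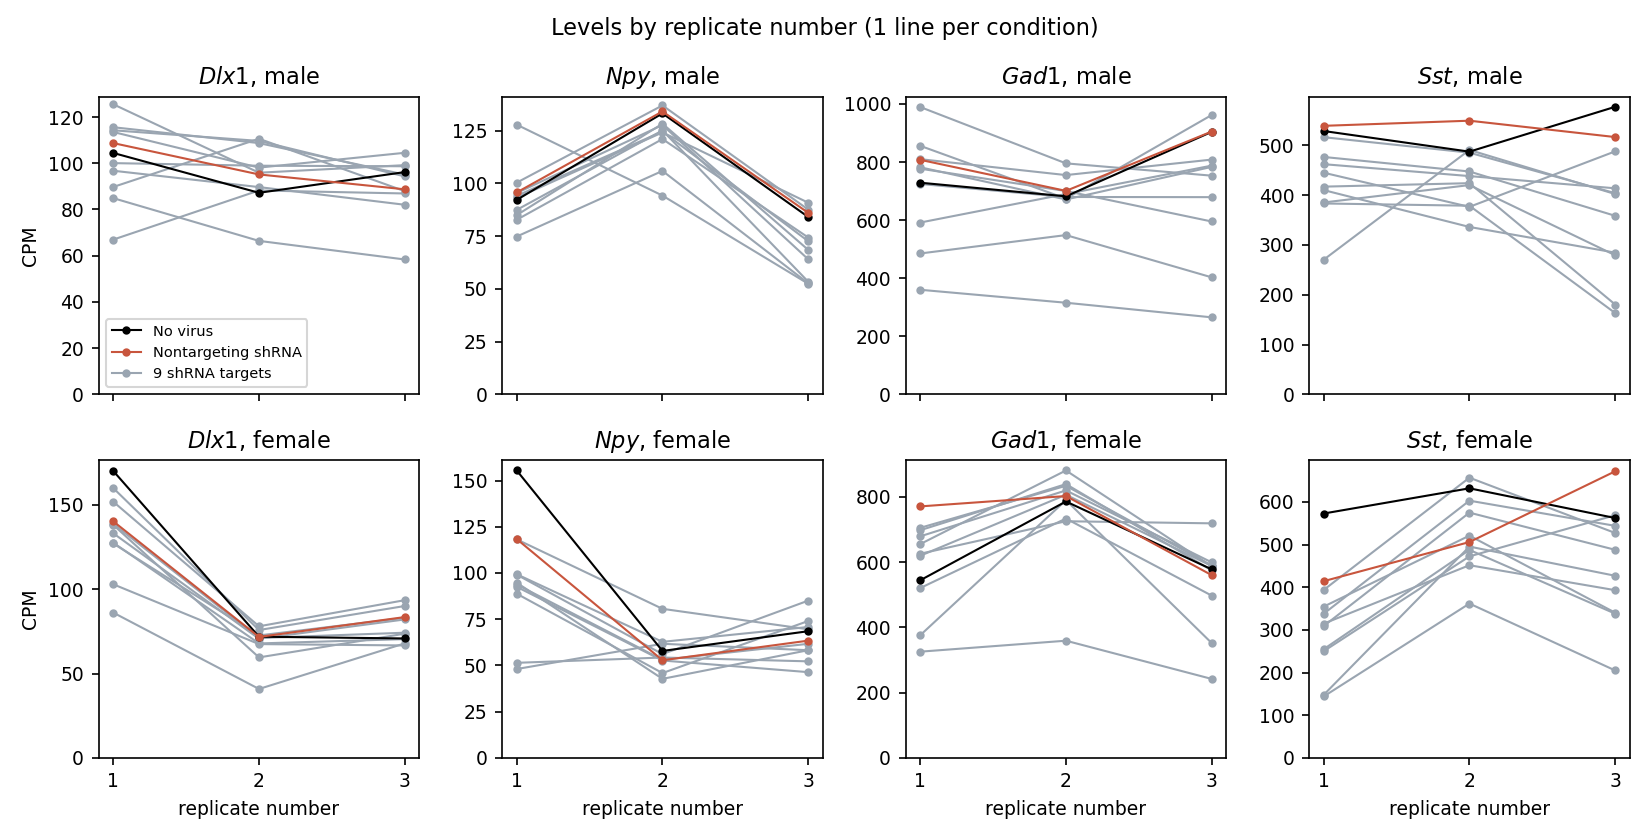
CPM of Dlx1, Npy, Gad1 and Sst by replicate number in males (top) and females (bottom); each line joins the 3 libraries of 1 of 11 conditions, with no virus in black and nontargeting shRNA in red. In females Dlx1 is highest in replicate 1 and Gad1 in replicate 2 in 11 of 11 conditions, and in males Npy is highest in replicate 2 in 10 of 11.

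Other interneuron genes, 58 in 4 lists of which 57 were tested, were mostly lower where they were called. In the 18 sex-specific comparisons, 19 of the 57 were called at least once, and 18 of these only lower (Etv1, named after its values were seen, was higher after Chd8 shRNA in females). Of all genes tested, 25.1% were called at least once and 14.8% only lower, against 33.3% and 31.6% of these 57. The lists were chosen with earlier results of these data known, so these shares and those below carry no test. Averaged over both sexes, Med13l shRNA had 20 lower and 1 higher (35.1% lower, beside 12.3% of all genes lower and 11.8% higher). Chd8 shRNA had 10 lower and 4 higher (17.5%, beside 12.5% lower and 9.85% higher). Setd5 shRNA had 7 lower and 1 higher (12.3%, beside 3.46% and 1.83%), and Ash1l shRNA 5 lower and 2 higher (8.77%, beside 3.49% and 2.67%). Setd5 shRNA in males had 0 of 57 called, beside 0.0557% of all genes called in either direction.

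Abat, the enzyme that breaks GABA down, was called lower in 5 comparisons, after Ash1l shRNA in males, Chd8 shRNA in both sexes and Med13l shRNA in both sexes. Over both sexes Abat fell by 0.64 after Ash1l (SE 0.13, edgeR adjusted p = 0.000443), 0.80 after Chd8 and 0.99 after Med13l shRNA. Nxph1, a secreted ligand of neurexins, and Kcnc2, a fast potassium channel, were called lower after Ash1l and Med13l shRNA in both sexes, 4 comparisons each. Kcnc2 stood at 75.4 ± 7.44 CPM (SD, n = 3) in control males, 32.3 ± 4.26 CPM after Ash1l and 40.6 ± 4.07 CPM after Med13l shRNA. Cplx1 and Erbb4 were called lower in 3 comparisons each, all of them with Chd8 or Med13l shRNA. Dlx6, on the strand opposite to Dlx6os1, fell over both sexes only after Chd8 shRNA among the 4 targets (-0.56, SE 0.20, adjusted p = 0.0396), where Dlx6os1 was at 0.11 (SE 0.18) without a call.

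Markers of other cells that were called beside 2 or more members are given here, and their part in the results was not tested. After Ash1l shRNA, Slc17a6, a vesicular glutamate transporter, rose by 0.97 in males and 0.94 in females (SE 0.22 each, edgeR adjusted p = 0.00727 and 0.0152). It was the only one of 12 excitatory markers called in either sex, while their summed level was 1172 to 1404 CPM after Ash1l shRNA in males against 989 to 1058 CPM in the controls. In females it was 1165 to 1330 CPM against 1025 to 1203 CPM, and the no virus females reached 1508 CPM. The 12 striatal markers had 0 calls after Ash1l shRNA, with sums of 320 to 510 CPM against 321 to 536 CPM. In the average of both sexes Top2a, of dividing cells, was also lower (SE 0.32, adjusted p = 0.0498).

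After Med13l shRNA, Nrn1 was higher and Top2a lower in males, and in the average Neurod6 was higher and Bcl11b, Aqp4, Gja1, Mog, Pdgfra, Ccnb1 and Mki67 lower as well. The 10 astrocyte markers summed to 399 to 594 CPM, against 492 to 761 CPM in controls. Of these, 2 of 10 were lower in the average, where 12.3% of all genes were lower and 11.8% higher. Chd8 shRNA lowered Drd1, Camk2a, Slc17a6, Slc17a7, Gfap and Slc1a2 in the average, where 12.5% of all genes were lower. Its excitatory sums were 871 to 1111 CPM. With Setd5 shRNA, Ccnb1 was lower in females and Ccnb1 and Top2a in the average, beside 2.14% and 3.46% of all genes. The 8 progenitor markers summed to 32.4 to 69.9 CPM there and to 37.0 to 61.3 CPM in controls.

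Over the 66 libraries, genes outside the 10 were ranked by the mean of their Pearson r of log2 CPM with Gad1, Gad2 and Slc32a1. The highest were Nrxn3, Ppargc1a, Zeb1, Abat and Vwa5a, with a mean r between 0.62 and 0.66. For Sst they were Cort, Caly, Fam181a, Pld3 and Stc2 (r from 0.80 to 0.84), and for Npy Zic2, Nkx2-1, Nrsn2, Gbx2 and Lhx8 (r from 0.71 to 0.81). When group means were removed, Cort remained first for Sst (r = 0.90) and Zic2 for Npy (r = 0.86), and Tox2 was first for the transmitter genes (mean r = 0.74). These libraries share conditions, sexes and replicate numbers, so the values are descriptions.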

How the data were processed

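Whole-number gene counts were deposited for 66 libraries, and reads had been processed with STAR and featureCounts on mm10, per the submitters' processing notes. Versions, annotation and strand setting are not given in the sources used here. Rows without a symbol (18483 rows, 0.69% to 1.42% of counts) and 6 columns of no listed sample were not used. Of deposited counts from 1 to 20, 26.7% were odd, against 49.1% of those of 1000 or more, so halved counts were an alternative.

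All libraries were fitted with edgeR 4.0.16 in R 4.3.3 (quasi-likelihood, robust, TMM factors 0.874 to 1.06, filterByExpr, 1 mean per group). Benjamini-Hochberg adjustment ran over the 16145 genes of each comparison, with a threshold of 0.05. DESeq2 1.42.0 and other settings were alternatives. CPM used TMM-scaled totals, and log2 CPM a prior count of 2. Replicate numbers were taken to pair libraries where all 3 same-numbered deviations from the group means correlated with those of the nontargeting libraries over 0.1. That held for 8 of 9 knockdowns in females and 6 of 9 in males. Over all groups, with no virus and those that failed included, r ran from 0.036 to 0.655 in females. In males it ran from -0.108 to 0.250, and the lowest r of a male knockdown that passed was 0.104 (Dnmt3a). Named were all members, Dlx6, interneuron genes called in 3 or more comparisons, and markers of other cells called beside 2 or more members. The members and lists were chosen with earlier results of these data known.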

Additional observations from a re-analysis of the deposited data

How the results depend on the processing

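None of the 47 called values reversed under any setting run. All 47 passed with DESeq2, RLE size factors, halved counts and the replicate block. Without a filter on low counts 44 passed, and without the 3 libraries left out together 43 did. With no virus as control, 23 of 24 passed. With replicate number as a block, the calls went from 5 to 14 in males, from 6 to 14 in females and from 13 to 25 in the average of both sexes. The share of all genes called rose as well. In the averages it went from 6.16% to 17.2% (Ash1l), 22.3% to 36.9% (Chd8), 24.1% to 41.5% (Med13l) and 5.3% to 16.2% (Setd5). In single sexes it went, for instance, from 1.98% to 8.27% (Ash1l males) and from 3.12% to 13% (Setd5 females). Where the numbers do not pair the libraries, the block added 6 lower calls in single sexes and 4 in averages (Ash1l males Dlx6os1, Lhx6 and Sst, Ash1l average Sst, Kdm6b Dlx1 in all 3, Med13l males Lhx6, Med13l average Sst and Npy). With each sex fitted separately there were 10 calls in males and 2 in females, and 7 of 11 single-sex calls passed (not Gad2 with Chd8, Slc32a1 with Med13l and Setd5 and Sst with Setd5 shRNA, all in females). The cause was not tested. Calls gained in males were Dlx2 higher with Ash1l and Chd8 shRNA, and Dlx6os1 with Ash1l, Slc32a1 with Chd8 and Lhx6 with Med13l shRNA lower. The share of all genes called in the separate fits was not counted. Leaving out 1 library gave 2 to 5 calls in males (2 without nontargeting replicate 3, and 3 without nontargeting replicate 1 or Med13l replicate 1 or 3) and 2 to 8 in females (2 without nontargeting replicate 1). It gave 9 to 14 in the average and 20 to 24 in the direct comparisons (23 with all libraries), with comparisons that do not use the left-out library taken as they were. The remaining families had 0 calls in every setting run, apart from the replicate number itself, with 13 or 14.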
